A study of Mus musculus with 9 samples.

Results

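Cbfb+/MYH11 marrow was compared with WT marrow across the transcriptome, in the 6 libraries that carry those genotypes out of 9 in the series. RNA had been taken from mouse bone marrow cells that a positive-selection bead kit for CD117 (c-Kit, the stem cell factor receptor) had bound. All mice were on the C57BL/6 strain and all had received pIpC, a double-stranded RNA mimic used to trigger an interferon response, so that treatment is shared by the controls. WT mice (3 libraries) had no altered Cbfb allele, and Cbfb+/MYH11 mice (3 libraries, MYH11 from here on) were heterozygous for an allele that encodes the full-length fusion CBFβ-SMMHC. The remaining 3 libraries, from Cbfb+/mDE mice (mDE), carry a fusion whose C-terminal multimerization domain is altered, and they enter only the shared estimate of spread and a few direct comparisons. Age, sex, dose, time after pIpC and any Cre driver are not given in the labels used here. The labels do not say whether the libraries of a genotype came from separate mice, so p-values reflect only how far these libraries scatter, and that scatter may be technical.

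CBFβ is the subunit that does not itself bind DNA in core binding factor, and it steadies the grip of RUNX1, RUNX2 or RUNX3 on DNA. An inversion of human chromosome 16 joins CBFB to MYH11, the gene of smooth muscle myosin heavy chain, and gives rise to acute myeloid leukaemia, often with eosinophil precursors of abnormal form. The fusion protein binds RUNX proteins through its CBFβ end and assembles into multimers through the myosin tail. Core binding factor is needed for the birth of blood stem cells and for normal myeloid, lymphoid and megakaryocyte maturation.

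The 6 libraries held 39300366 to 47469320 reads, and 20329 to 20616 genes were detected in WT against 21245 to 21964 in MYH11. Reads of the mitochondrial genome made up 1.53% to 1.62% of WT and 1.83% to 2.06% of MYH11. The 10 most abundant genes of a library took 12.6% to 14.4% of the reads in WT and 4.66% to 5.08% in MYH11. Levels are deposited normalised reads, that is, read counts divided by a size factor for each library, and are given as mean ± SD (n = 3) or for each library in the order of replicates 1, 2 and 3. Fold differences are ratios of group means and log2 fold changes are MYH11 minus WT on the log2(value + 1) scale. Kit, the antigen of the selection, was at 7362, 7354 and 7797 normalised reads in the WT libraries and at 3868, 3226 and 3521 in the MYH11 libraries. Both genotypes therefore carried the selected transcript, and all 3 MYH11 libraries lay below all 3 WT libraries (2.12-fold lower, log2 fold change -1.09, SE 0.07, limma adjusted p = 2.06e-06). The Y-linked genes Ddx3y, Eif2s3y and Kdm5d had 0 reads in all 6 libraries, and Uty had 2 reads over the MYH11 libraries. Xist, the RNA that silences an X chromosome in female cells, was at 8052, 9364 and 9049 in WT and 18868, 35731 and 26325 in MYH11, 3.06-fold higher (limma adjusted p = 0.00348), with no overlap.

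Of 43629 genes in the table, 15948 had enough reads to be tested, and 9536 of them (59.8%) differed between MYH11 and WT at a limma adjusted p under 0.05. Higher levels in MYH11 were called for 5105 genes (32%) and lower levels for 4431 (27.8%). These percentages are the background for every count of a gene group given here. Genes of the lists were called more often, with 537 higher and 423 lower of 1365 tested (70.3% in all). A list share slightly above the background is therefore not by itself a result about that list. A gene with almost no reads in WT and mDE was tested only because of its MYH11 reads and could only be called higher. Counts of rises include such genes. Differences of at least 2-fold made up 3704 of the calls (23.2% of genes tested). The libraries of the genotypes did not overlap for 10957 genes (68.7%), with MYH11 above WT in 5805 (36.4%) and below in 5152 (32.3%). Large changes leaned upward. Among called genes, 128 rose and 18 fell by more than 32-fold, 125 rose and 39 fell by 16-fold to 32-fold, and 289 rose and 138 fell by 8-fold to 16-fold. Below 2-fold the balance was the other way, with 2787 higher and 3045 lower. The median log2 fold change over all genes tested was 0.02. In a bulk library, fewer cells of a type and less RNA per cell cannot be told apart, and this holds for every gene below.

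**Figure D1:**
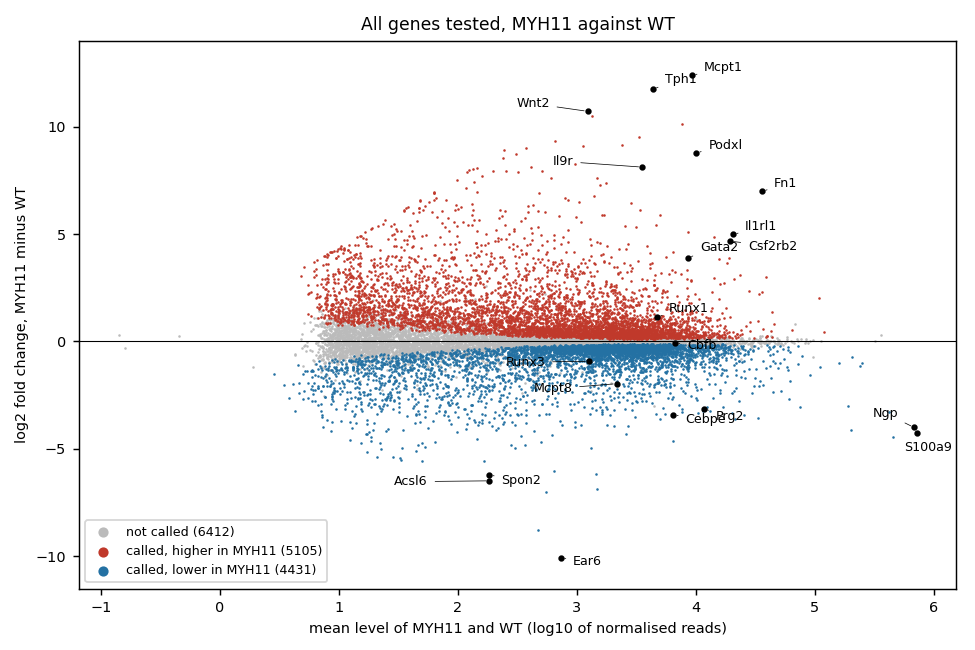
Each point is 1 of the 15948 genes tested, with the mean level of the MYH11 and WT groups on the horizontal axis (log10 of normalised reads) and the log2 fold change, MYH11 minus WT, on the vertical axis. Red and blue points are the 5105 higher and 4431 lower calls, and the named points show that the largest rises reach a log2 fold change of 12.39 (Mcpt1) while the most abundant genes, S100a9 and Ngp, lie among the falls.

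The direction of change varied with the kind and length of the transcript. Among 1224 processed pseudogenes tested, 43 rose and 194 fell, while antisense RNAs (123 up and 74 down of 378) and long intergenic RNAs (112 up and 65 down of 325) leaned upward. Protein-coding genes gave 4610 rises and 3941 falls of 13084. When protein-coding genes were divided into quintiles by exon length, the median log2 fold change went from -0.11 in the shortest quintile to 0.25 in the longest, through -0.03, 0.02 and 0.09. The share of genes called higher went from 23.9% to 51.0% and the share called lower from 37.5% to 20.9% across the same quintiles. Each MYH11 library showed the same order against the WT mean, and replicate 2 had the widest span, from -0.15 to 0.27. By level, the median log2 fold change was 0.38 in the lowest quintile of protein-coding genes and -0.05 in the highest. Exon length and level move with the direction of change across the genes below, and their part in any single result was not tested.

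The loss of reads was more concentrated in a few genes than the gain, and neutrophil genes led the loss. Over called genes, the losses summed to 11929192 normalised reads and the gains to 5290959. The 12 genes with the largest losses held 14.1% of the reads in WT and 2.71% in MYH11, and they account for 44.28% of the summed losses. They are S100a9, Ngp, S100a8, Ltf, Camp, Lcn2, Chil3 and Anxa1 of neutrophils, Lyz2 of myeloid cells in general, Mpo of early granulocytes, and the cytoskeletal genes Actb and Arhgdib. Actb, the cytoplasmic β-actin, fell 1.63-fold (from 254442 ± 27077 to 156113 ± 4502) and Arhgdib, an inhibitor of GTPase cycling in blood cells, fell 2.98-fold (from 136236 ± 10444 to 45782 ± 4784). The 12 largest gains held 0.491% of the reads in WT and 2.18% in MYH11, or 11.63% of the summed gains. Psap, the precursor of lysosomal saposins, gave the largest gain, from 42198 ± 3977 to 174545 ± 22411 (4.14-fold). Fn1, F13a1, Cd74, Mpeg1, Il1rl1, Eef2, Ly6e, Csf2rb, Hba-a1, Csf2rb2 and Ccr2 followed. Ly6e, a small membrane protein of immature and interferon-treated blood cells, rose 2.59-fold (from 24246 ± 140.3 to 62823 ± 1346), and Eef2, the factor that moves the ribosome along mRNA, rose 1.38-fold (from 101243 ± 6399.7 to 139827 ± 12896).

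**Figure D2:**
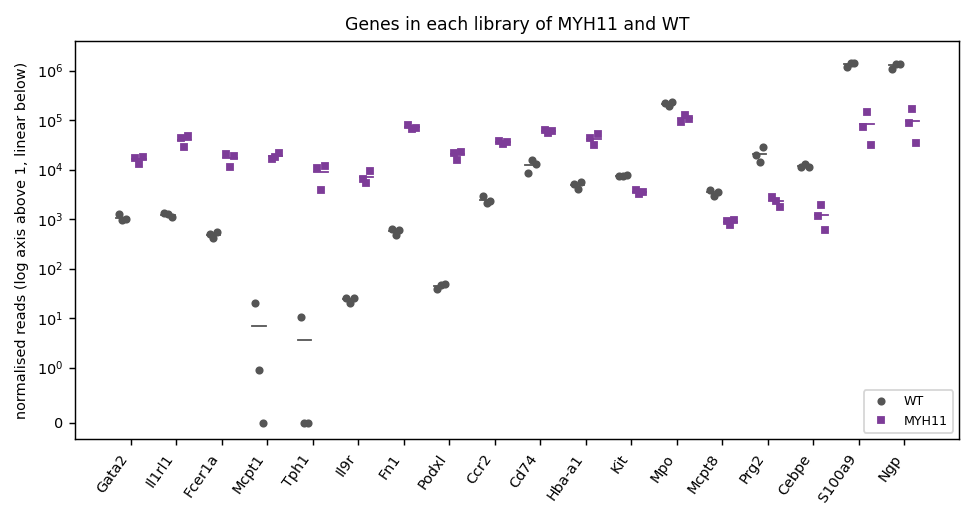
Normalised reads of 18 genes in each of the 3 WT libraries (grey circles) and 3 MYH11 libraries (purple squares), on a log axis that is linear below 1, with a line at each group mean. The 18 genes run from Gata2 and Il1rl1 among the rises to S100a9 and Ngp among the falls. Their groups do not overlap, a condition of the naming rule for list members, and 68.7% of all genes tested did not overlap either.

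The genes of the fusion itself and of its partners were read next. Cbfb (chromosome 8, 105170674 to 105217989 in GRCm38) was at 7136, 6535 and 6929.8 in WT and 6449, 6349 and 6909.9 in MYH11, and the groups overlapped (log2 fold change -0.06, SE 0.07, limma adjusted p = 0.461). Myh11 (chromosome 16, 14194535 to 14291372), the smooth muscle partner, was at 7.72, 8.64 and 4.7 in WT and 219, 194 and 176 in MYH11, without overlap (log2 fold change 4.65, SE 0.26, limma adjusted p = 1.08e-06). How the authors' counting assigned reads that cross the fusion point is not given in the sources used here. The RUNX genes moved in different directions. Runx1 held 3036, 2841 and 2929 in WT and 6342, 5794 and 7589 in MYH11, and Runx2, best known from bone, rose 2.15-fold (from 1179 ± 164 to 2533 ± 352, limma adjusted p = 5.45e-05). Runx3, a factor of T, NK and dendritic cells, fell 1.89-fold, from 1631, 1737 and 1588 to 999, 769.6 and 856 (limma adjusted p = 6.64e-05). The 3 MYH11 libraries lay above WT for Runx1 and Runx2 and below WT for Runx3.

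The corepressors around RUNX also changed. Runx1t1 (ETO, a corepressor known from its own fusion to RUNX1) was nearly silent in WT, at 4.82, 4.8 and 5.87, and reached 2048, 1307 and 2429 in MYH11, 373-fold higher (log2 fold change 8.25, SE 0.34, limma adjusted p = 2.92e-07). Its relative Cbfa2t3 (ETO2) rose 3.85-fold (from 1169 ± 92 to 4503 ± 813). Of the Groucho corepressors, Tle1 rose 2.59-fold (from 405 ± 20.6 to 1051 ± 58.7) and Tle3 fell 2.44-fold (from 5437 ± 286 to 2228 ± 104). Hdac3, a histone deacetylase of corepressor complexes, fell 1.28-fold. Over the 16 genes of the Runx and core binding factor list, all tested, 8 rose and 5 fell.

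Runx3 has separate start sites, and the window before the distal site holds a pair of RUNX core letters. Windows here are the 250 bases before a RefSeq start site in GRCm38.p6, searched on both strands for the RUNX core (TGTGGT or its complement ACCACA) and for a GATA sequence (AGATAA or its complement TTATCT), which do not overlap each other. The RUNX core letters occur in 14.2% of 27025 such windows, counting the first listed window of each gene, and the GATA letters in 10.3%. For genes tested here the shares were 11.4% and 6.32% of 10872. Called genes at least 4-fold higher had them in 12.9% and 9.57% of 752, called genes at least 4-fold lower in 17.3% and 11.1% of 369, and genes not called in 11.1% and 5.73% of 3802. The printed windows belong to genes with large or opposed changes, chosen after their values and matches were known. The window of Ngp, a gene with one of the largest losses of reads, was extracted too and held no match. A match describes letters, not a site that was measured. In the Runx3 window (chr4:135120395-135120644 on the plus strand) the capitals mark ACCACA starting 134 and 126 bases before the start site, and a further Runx3 window held no match.
Runx3 distal: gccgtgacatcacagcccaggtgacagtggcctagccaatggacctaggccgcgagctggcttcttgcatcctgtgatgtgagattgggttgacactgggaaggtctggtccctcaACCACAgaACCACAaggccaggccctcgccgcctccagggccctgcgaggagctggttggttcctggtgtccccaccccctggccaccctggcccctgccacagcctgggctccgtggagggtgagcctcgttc

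Lineage regulators changed in both directions, with GATA factors among the rises and C/EBP factors among the falls. Gata2, a zinc finger factor of stem, mast and megakaryocyte cells, was at 1284, 955 and 983 in WT and 17177, 13086 and 18135 in MYH11 (limma adjusted p = 2.45e-07). Gata3, better known from T cells, rose 31.9-fold (from 39.2 ± 10.5 to 1248 ± 319), and Gata1 of red cells, mast cells and eosinophils rose 1.86-fold (from 3369 ± 305 to 6252 ± 1202). Batf3, needed for a class of dendritic cell, rose 17.9-fold (from 18.4 ± 5.28 to 329.7 ± 86.7). Cebpe, the factor of secondary granule genes, was at 11324, 12743 and 11229.8 in WT and 1147, 1906 and 611 in MYH11, 9.64-fold lower (limma adjusted p = 2.07e-05), and every MYH11 library was below every WT library. Cebpd fell 3.57-fold (from 1798 ± 144 to 503 ± 50.4), Gfi1, a repressor of monocyte genes in granulocytes, fell 3.19-fold (from 4633 ± 235 to 1454 ± 569.7), and Zfpm1 (FOG1), a cofactor of GATA proteins, fell 3.7-fold (from 3361 ± 469.8 to 908 ± 130.5). Tcf7 of T cells fell 4.78-fold. The 30 lineage factors of the list, all tested, divided into 12 rises and 13 falls, with a median log2 fold change of -0.03.

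Among other classes of regulator, the nuclear receptors leaned upward. Of 17 nuclear receptors tested, 10 rose and 1 fell (median 0.84). Nr4a3 rose 13.2-fold (from 27.5 ± 7.17 to 363 ± 174), Rxra 3.65-fold, Ppard 3.18-fold and Rarg 3.16-fold, while Nr4a1, a gene switched on within minutes of a stimulus, fell 2.51-fold. Among 17 homeobox and Sox genes, 8 rose and 4 fell (median 0.13). Sox6, which represses fetal globin genes in red cells, rose 12.4-fold (from 617 ± 71.8 to 7679 ± 1697), and Zeb2 rose 4.36-fold (from 2584 ± 363 to 11254 ± 666) while its paralogue Zeb1 fell 1.68-fold (from 1826 ± 95.3 to 1087 ± 95.5). Sox13 fell 4.13-fold and Hlx 2.33-fold. In the basic helix-loop-helix list, 9 of 19 rose and 5 fell (median 0.06, against 0.02 over all genes tested). Ahr, the receptor for dioxin and tryptophan products, rose 10.2-fold (from 117 ± 24.1 to 1202 ± 207), whereas Mxd1, an antagonist of Myc, fell 3.99-fold (from 13463 ± 2587 to 3373 ± 1025) and Id2 fell 3.03-fold. Among chromatin genes, Cbx7, Cbx2, Tet2 and Kmt2a rose 3.11-fold, 2.56-fold, 2.51-fold and 2.0-fold, and Uhrf1, which brings DNA methylation to newly made DNA, fell 1.27-fold.

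Genes of the mast cell, a tissue-resident granulocyte that carries the IgE receptor and heparin-bound proteases, had the highest median log2 fold change of the lists examined. Of 24 listed genes, 19 were tested, 15 rose and 3 fell, with a median log2 fold change of 3.84. The count and the median include Mcpt1, Mcpt2, Mcpt4 and Tph1. These passed the read filter only because of their MYH11 reads, so a rise was the only call open to them. The genes that fell were Kit, Fcer1g, the signalling γ chain that the IgE receptor shares with other Fc receptors (1.61-fold), and Hdc, which makes histamine (1.51-fold). Tpsab1 had 0 reads in both genotypes, and the tryptase Tpsb2 was at 1.35 ± 0.51 in WT and 38.6 ± 32.8 in MYH11 and was not tested. The listed genes took 0.166, 0.165 and 0.175% of the reads in the WT libraries and 0.637, 0.461 and 0.683% in the MYH11 libraries. Fcer1a, the chain that binds IgE, was at 490.2, 413 and 549.7 in WT and 20279, 11326 and 18695 in MYH11, 34.6-fold higher (log2 fold change 5.08, SE 0.26, limma adjusted p = 7.13e-07). Ms4a2, the β chain of that receptor, rose 29.4-fold (from 938 ± 86.3 to 27613 ± 4913) and Cpa3, carboxypeptidase A of mast cell granules, rose 15.1-fold (from 1947 ± 186 to 29454 ± 11011). Mitf, a master regulator of mast and pigment cells, rose 7.99-fold (from 224 ± 15.2 to 1788 ± 423).

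Basophil and eosinophil genes did not move as a unit. Cd200r3, an activating receptor of basophils and mast cells, rose 42.4-fold (from 117 ± 9.83 to 4944 ± 1191). The proteases that mark basophils fell, with Mcpt8 at 3885, 2992 and 3501 in WT and 925, 776 and 953 in MYH11 (limma adjusted p = 4.09e-05), and Prss34 down 7.13-fold (from 5647 ± 354 to 793 ± 35.5). The 14 basophil genes gave 6 rises and 5 falls. Among 13 eosinophil genes tested, 3 rose and 7 fell (median -2.47). Prg2, the major basic protein of eosinophil granules, fell from 20125, 14030.0 and 28876 to 2859, 2333 and 1789 (limma adjusted p = 2.63e-05). Epx, the eosinophil peroxidase, fell 5.75-fold (from 6264 ± 2318 to 1090.2 ± 202), and Alox15, a lipoxygenase of eosinophils and macrophages, fell 13.1-fold. Siglecf and Adgre1, surface proteins shared with macrophages, rose 3.29-fold and 3.5-fold. Ear6, an eosinophil ribonuclease, had 1 read in all over the 3 MYH11 libraries against 4163 in WT, a ratio whose 95% counting interval runs from 880 to 193600. Its paralogue Rnase2a, also a ribonuclease of eosinophils and macrophages, had 9 reads over the WT libraries and rose to 1018 ± 524 normalised reads. Ear and other paralogues of near-identical sequence can exchange reads, and how these were counted is not given here, so their separate values are uncertain.

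The serine proteases of mast cells and basophils sit side by side, and neighbours moved in opposite directions. Of 15 protein-coding genes named in the annotation of chromosome 14 from 55941451 to 56262260 (GRCm38), 7 were tested, 5 rose, 1 fell and 1 was not called. Mcpt1, Mcpt2 and Mcpt4 passed the read filter only because of their MYH11 reads, so a rise was the only call open to them. Mcpt1 (chromosome 14, 56017971 to 56020384), a chymase of mucosal mast cells, was at 20.3, 0.96 and 0 in WT and 16539, 18321 and 21135 in MYH11, 2638-fold higher (log2 fold change 12.39, SE 0.91, limma adjusted p = 4.49e-06). Mcpt2 rose 724-fold (from 3.1 ± 0.368 to 2245 ± 393) and Cma1 54.9-fold (from 10.6 ± 3.82 to 580.4 ± 405), and Mcpt1 and Mcpt2 are close in sequence. Mcpt4, the chymase of connective tissue mast cells, had 0 reads in WT and 31.6, 10.2 and 31 normalised reads in MYH11. Next to Mcpt4, Mcpt8 (chromosome 14, 56082166 to 56085273) fell 3.91-fold, and its neighbour Ctsg, cathepsin G of neutrophil granules, was at 31806 ± 4014 in WT and 27187 ± 5919.9 in MYH11 (limma adjusted p = 0.197). At the far end of the cluster Gzmb, granzyme B of killer cells, rose 2.68-fold. The cluster and those described below were singled out after their values were known.

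The windows before the start sites of Mcpt1 and Mcpt8 are shown because these genes of the same cluster moved in opposite directions. That of Fcer1a is given as a non-protease gene that rose. The Mcpt1 window (chr14:56017714-56017963 on the plus strand) has TGTGGT starting 65 bases before the start. The Mcpt8 window (chr14:56085198-56085447 on the minus strand) has TGTGGT at 188 bases and ACCACA at 139 bases. The Fcer1a window (chr1:173227230-173227479 on the minus strand) has TTATCT at 92 bases and TGTGGT at 14 bases. Capitals mark these letters.
Mcpt1: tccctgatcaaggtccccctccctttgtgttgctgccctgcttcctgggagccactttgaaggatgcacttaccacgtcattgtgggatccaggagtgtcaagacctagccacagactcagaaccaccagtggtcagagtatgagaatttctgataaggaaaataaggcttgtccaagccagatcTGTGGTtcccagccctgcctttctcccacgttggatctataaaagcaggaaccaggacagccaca
Mcpt8: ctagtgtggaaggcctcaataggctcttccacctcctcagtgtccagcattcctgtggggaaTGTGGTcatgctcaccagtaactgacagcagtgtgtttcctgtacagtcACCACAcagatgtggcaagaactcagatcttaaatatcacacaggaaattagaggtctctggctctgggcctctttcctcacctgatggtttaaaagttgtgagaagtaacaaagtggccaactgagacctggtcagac
Fcer1a: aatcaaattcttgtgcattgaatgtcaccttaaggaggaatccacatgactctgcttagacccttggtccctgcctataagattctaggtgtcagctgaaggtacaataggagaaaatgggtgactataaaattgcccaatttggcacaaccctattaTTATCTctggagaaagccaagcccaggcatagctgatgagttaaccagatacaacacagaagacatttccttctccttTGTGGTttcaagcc
Both Mcpt1, which rose most, and Mcpt8, which fell, thus hold RUNX core letters. The GATA letters searched for, AGATAA or TTATCT, occur in Fcer1a of these 3, and other GATA spellings were not searched for.

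**Figure D3:**
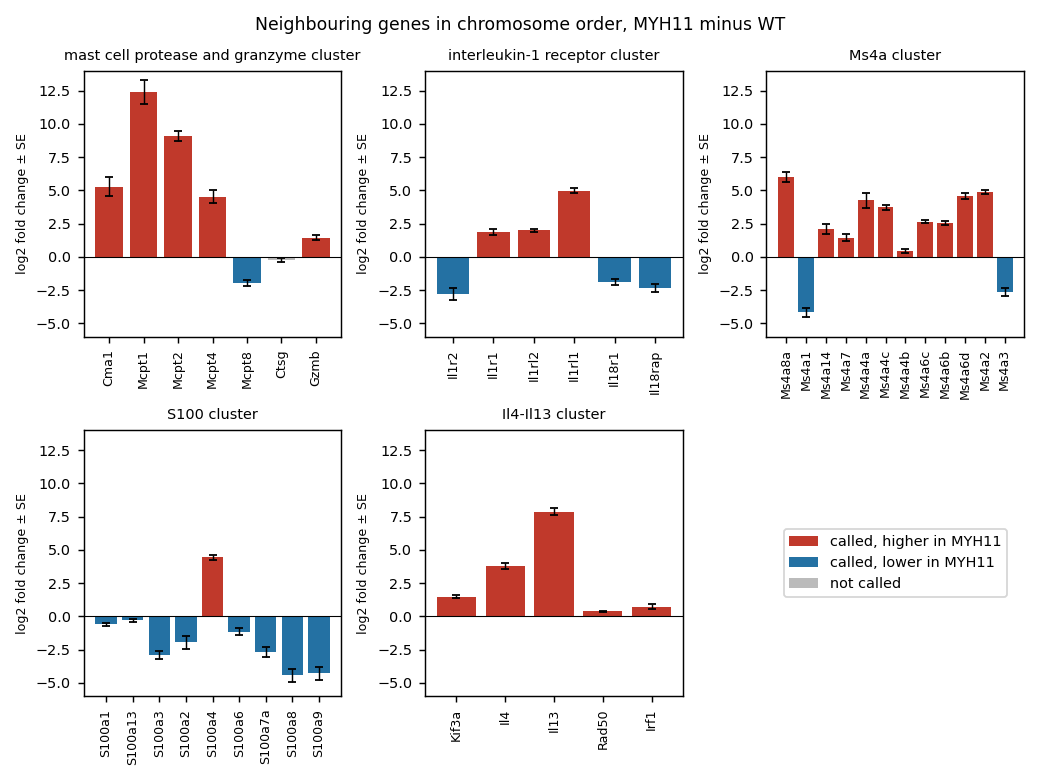
Log2 fold change, MYH11 minus WT, ± SE for the tested genes of 5 chromosomal clusters, drawn in chromosome order, with red for higher, blue for lower and grey for not called. Opposite directions stand beside each other in the mast cell protease, interleukin-1 receptor, Ms4a and S100 clusters, and all 5 tested genes rise around Il4 and Il13.

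The type 2 cytokine genes Il4 and Il13 and the receptor gene Il9r rose from low or zero levels. Il13, a cytokine of mast cells and type 2 lymphocytes, had 0 reads in the 3 WT libraries and 241, 177 and 299.5 normalised reads in MYH11. With 3 reads in a library as the floor (3.52 normalised reads in the shallowest WT library), that is at least 67.9-fold higher (limma adjusted p = 1.47e-07). Il4 rose 14.5-fold (from 31.8 ± 6.29 to 462 ± 104). Il5 had only 0.322 ± 0.557 in WT and 0.597 ± 0.517 in MYH11 and was not tested. Around them on chromosome 11, from 53567379 to 53778374, all 5 tested genes of 6 rose, namely Kif3a (2.83-fold), Il4, Il13, Rad50 (1.29-fold) and Irf1 (1.67-fold). Il13 passed the read filter only because of its MYH11 reads, so a rise was the only call open to it. Il9r, the receptor for the mast cell growth cytokine interleukin-9, was at 26.1, 20.2 and 25.8 in WT and 6566, 5433 and 9210.2 in MYH11, 294-fold higher (log2 fold change 8.12, SE 0.36, limma adjusted p = 3.8e-07). The Il13 window (chr11:53634703-53634952 on the minus strand) has TGTGGT at 91 bases and AGATAA at 81 bases before the start. The Il9r window (chr11:32200280-32200529 on the minus strand) has AGATAA at 223, TGTGGT at 83 and TTATCT at 30 bases.
Il13: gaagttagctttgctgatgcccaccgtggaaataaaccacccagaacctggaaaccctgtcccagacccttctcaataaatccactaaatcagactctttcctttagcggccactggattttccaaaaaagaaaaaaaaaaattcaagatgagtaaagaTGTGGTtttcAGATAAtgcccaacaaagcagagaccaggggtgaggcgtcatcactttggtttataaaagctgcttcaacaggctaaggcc
Il9r: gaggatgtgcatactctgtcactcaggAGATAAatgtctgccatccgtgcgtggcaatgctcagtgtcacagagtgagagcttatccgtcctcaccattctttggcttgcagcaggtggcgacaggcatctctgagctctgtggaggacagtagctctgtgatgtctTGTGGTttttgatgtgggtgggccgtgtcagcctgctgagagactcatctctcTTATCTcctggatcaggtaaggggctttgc
Of all windows, 1.78% hold both kinds of letters. The share was 1.99% for called genes at least 4-fold higher, 2.44% for those at least 4-fold lower and 0.973% for genes not called.

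Several receptors that mast cells and monocytes use for growth cytokines and alarmins rose. Il1rl1 (ST2), the receptor for interleukin-33, was at 1308, 1286 and 1122 in WT and 44037, 28151 and 48086 in MYH11, with replicate 2 the lowest of the MYH11 libraries and still above all WT libraries (limma adjusted p = 2.45e-07). It lies in a row of 6 interleukin-1 receptor genes on chromosome 1 (40074079 to 40551705). Its neighbours Il1r1 and Il1rl2 rose 3.66-fold (from 199.8 ± 49.8 to 731 ± 165) and 3.97-fold (from 883 ± 103 to 3509 ± 638). The flanking genes fell, Il1r2, the decoy receptor of neutrophils, by 5.72-fold (from 2279 ± 515 to 398 ± 308), and the interleukin-18 receptor chains Il18r1 and Il18rap by 3.64-fold and 4.68-fold. Il1rap, on another chromosome and the shared partner of these receptors, fell 1.77-fold. Csf2rb2 and Csf2rb, the near-identical β chains for interleukin-3, interleukin-5 and GM-CSF, rose 26.4-fold (from 1416 ± 94.3 to 37379.7 ± 12294) and 5.17-fold (from 9040.5 ± 402 to 46772 ± 9475), and reads shared by the pair make their split uncertain. Il6st, the signalling chain for interleukin-6, rose 8.89-fold (from 1033 ± 232 to 9182 ± 749). Csf1r, the receptor of monocyte growth, rose 6.44-fold (from 4320.0 ± 459 to 27822 ± 3911) and Csf3r, that of granulocyte growth, fell 1.89-fold (from 15000.5 ± 3454 to 7927 ± 1695). Across 31 cytokine receptor genes, 16 rose and 9 fell.

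Several feedback genes downstream of these receptors rose. Of 22 JAK, STAT and SOCS genes, 14 rose and 2 fell, with a median of 0.48. Socs2, an inhibitor induced by STAT5, was at 100.4, 96.9 and 92.8 in WT and 1682, 1573 and 2091 in MYH11, 18.4-fold higher (limma adjusted p = 9.75e-08), and the groups did not overlap. Cish, of the same kind, rose 10.6-fold (from 139 ± 42 to 1475 ± 449.8), Socs3 7.32-fold (from 114 ± 50.3 to 834 ± 136) and Socs1 5.31-fold (from 39.9 ± 11.2 to 212 ± 53.6). The survival kinase Pim1 rose 3.74-fold. Stat5a and Stat5b rose 1.48-fold and 1.35-fold, while Stat4 fell 2.92-fold. Stat6, which transmits interleukin-4 signals, was at 7953 ± 623 in WT and 7939.9 ± 374 in MYH11 (limma adjusted p = 0.997).

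A route for storing amines and heparin was raised at several steps and lowered at others. Of 23 eicosanoid and amine genes tested, 8 rose and 11 fell (median log2 fold change -0.08). Tph1, which starts serotonin synthesis outside the brain, was at 10.6, 0 and 0 in WT, where 1 library alone had reads, and at 10591, 3788 and 11921 in MYH11 (log2 fold change 11.75, SE 0.94, limma adjusted p = 7.24e-06). Ddc, the decarboxylase of the next step, rose 179.5-fold (from 19.3 ± 1.75 to 3473 ± 913), the vesicle amine pump Slc18a2 rose 11-fold (from 484 ± 22 to 5308 ± 1128) and Maob, which breaks amines down, rose 522-fold (from 9.24 ± 7.24 to 4821 ± 1679.9). Hnmt, which inactivates histamine, fell 3.75-fold (from 921 ± 48.3 to 246 ± 74.5), and the histamine receptor Hrh4 rose 62.4-fold (from 4.77 ± 0.0669 to 298 ± 93). Ndst2, the sulphotransferase that mast cells need for heparin, rose 6.95-fold (from 1561 ± 48.2 to 10849 ± 1947), while Srgn, the core protein that carries the chains, was at 32188 ± 3245 in WT and 27314 ± 2033 in MYH11 (limma adjusted p = 0.0845). Across the 30 glycan genes 13 rose and 7 fell, the latter including Chst12 (2.64-fold) and Csgalnact2 (2.23-fold) of chondroitin synthesis. In the granule traffic list 7 of 24 rose and 8 fell, and paralogues divided, with Rab27b up 6.38-fold and Rab27a down 2.27-fold. Among eicosanoid enzymes, Tbxas1 (thromboxane synthase) rose 4.95-fold and Lta4h, which makes leukotriene B4, fell 4.15-fold (from 55009 ± 2944 to 13243 ± 3384), as did its receptor Ltb4r1 (5.82-fold), while the cysteinyl leukotriene receptor Cysltr1 rose 12.8-fold.

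Neutrophil maturation genes made up the largest falls in absolute reads. None of the 20 late neutrophil genes rose and 18 fell, with a median log2 fold change of -2.85, and Stfa1 and Stfa2 were not called. The list took 11.2, 13.3 and 13.2% of all reads in the WT libraries and 1.54, 2.58 and 0.864% in the MYH11 libraries. S100a9, a member of the calcium-binding pair calprotectin, was at 1173961, 1422598 and 1448246 in WT and 72982, 147040.1 and 30818 in MYH11, 16.1-fold lower (log2 fold change -4.28, SE 0.47, limma adjusted p = 4.84e-05). Ngp, a secondary granule protein, was at 1094846, 1340699 and 1380168 in WT and 86469, 165845 and 34305 in MYH11, 13.3-fold lower (limma adjusted p = 7.48e-05). In both genes MYH11 replicate 2 was the highest and replicate 3 the lowest of their group, and both lay below all WT libraries. Ltf, lactoferrin, fell 7.97-fold (from 749637 ± 119290.1 to 94043 ± 67239) and Lcn2, which binds iron carriers of bacteria, fell 6.7-fold (from 330541 ± 53015 to 49299 ± 34324). Mmp9, the gelatinase of tertiary granules, fell 10.4-fold, and Mmp25 and Mmp8 fell 5.93-fold and 5.14-fold. Of 27 chemokine and lipid mediator receptors 9 rose and 11 fell, the falls including C5ar1 (7.81-fold) and the formyl peptide receptors Fpr1 (5.79-fold) and Fpr2 (4.93-fold). The voltage-gated proton channel gene Hvcn1 fell 5.22-fold.

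S100a9 and S100a8 lie in a run of 12 S100 genes on chromosome 3 (90511034 to 90695721), of which 9 were tested, 8 fell and 1 rose. The exception was S100a4, a calcium-binding protein of monocytes, which rose 21.7-fold (from 345 ± 55 to 7494 ± 1121). Nearby S100a6 fell 2.23-fold. The S100a9 window (chr3:90695722-90695971 on the minus strand) holds ACCACA at 64 bases and AGATAA at 30 bases before the start, in capitals here, so both kinds of letters seen in Il13 and Il9r are also found before a gene that fell.
S100a9: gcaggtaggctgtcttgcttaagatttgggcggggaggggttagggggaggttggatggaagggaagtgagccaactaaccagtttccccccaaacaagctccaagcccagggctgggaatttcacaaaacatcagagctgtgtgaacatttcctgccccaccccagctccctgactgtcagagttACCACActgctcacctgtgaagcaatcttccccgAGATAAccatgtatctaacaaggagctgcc

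Most primary granule genes fell. Of 14 tested of 15, 11 fell and 1 rose, with a median of -1.62, and the list went from 1.35, 1.23 and 1.35% of reads in WT to 0.62, 0.811 and 0.653% in MYH11. Mpo, myeloperoxidase, was at 218566, 189519 and 232841 in WT and 92604, 124100.1 and 106779 in MYH11, 1.98-fold lower (limma adjusted p = 0.000594). Prtn3, proteinase 3, fell 2.36-fold (from 55031 ± 2213 to 23326 ± 3680.5), while the ficolin gene Fcnb of granulocyte precursors fell 11.3-fold (from 39623 ± 1469 to 3505 ± 1763). Ctsc, the dipeptidase that activates granule serine proteases of neutrophils, mast cells and killer cells, rose from 2658, 2891 and 2625 to 36195, 30249 and 36241, 12.6-fold higher (limma adjusted p = 2.12e-08). Ctsg and Cst7 were not called, the latter at 4422 ± 426 in WT and 4162 ± 86.3 in MYH11.

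Most monocyte and macrophage genes rose. Of 22 tested, 18 rose and 2 fell (median 2.47). The falls were Lyz2 (2.17-fold) and Cx3cr1 (4.67-fold), a receptor of patrolling monocytes. Ccr2, which draws monocytes out of the marrow, was at 2872, 2143 and 2356 in WT and 37989, 32919.7 and 36652 in MYH11, 14.6-fold higher (limma adjusted p = 1.94e-06). Fn1, fibronectin, was at 622, 478 and 600.2 in WT and 79972, 65084 and 70325 in MYH11, 127-fold higher, and Vcan, the matrix proteoglycan versican, rose 163-fold (from 19.1 ± 4.62 to 3110.2 ± 181). F13a1, a clotting transglutaminase of monocytes and platelets, rose 7.97-fold (from 8678 ± 1097 to 69148 ± 4945). Mpeg1, a pore-forming protein of phagocytes, rose 4.61-fold (from 12221 ± 1224 to 56332 ± 2309) and Klf4 rose 5.96-fold. Cd14 and Ly6c2, further monocyte markers, were not called, at 487 ± 481 in WT and 379 ± 115 in MYH11 and at 31932 ± 2575 in WT and 37768 ± 3691 in MYH11.

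Several genes known to be induced in macrophages by interleukin-4 or interleukin-13 changed, in both directions. Retnla (resistin-like α) was at 48.2, 1.92 and 11.7 in WT and 17928, 6702 and 21170.0 in MYH11, 739.7-fold higher (limma adjusted p = 1.7e-05). Arg1, arginase, rose 257-fold (from 11.4 ± 2.73 to 2944 ± 1818) while the mitochondrial form Arg2 fell 6.01-fold (from 284 ± 82 to 47.2 ± 19.6). Ccl24, a chemokine for eosinophils, rose 828-fold (from 7.99 ± 3.45 to 6614 ± 2395). Mrc1, the mannose receptor, and the lectin Clec10a rose 5.33-fold and 16.9-fold. Chil3, often counted with these genes but also abundant in neutrophils, fell 2.0-fold (from 330925 ± 60054 to 165238 ± 26132). Across 28 cytokine and chemokine genes 16 rose and 4 fell, the falls being Tnf (3.83-fold), Il1b (3.52-fold), Vegfa (2.14-fold) and Cxcl2. Cxcl2 was at 7.72, 64.3 and 142 in WT and 2.71, 7.67 and 0.886 in MYH11 (log2 fold change -3.46, limma adjusted p = 0.0119), and it was not called by limma-voom. Igf1 rose 8.42-fold (from 296 ± 64.3 to 2489 ± 903).

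Most antigen presentation genes rose. Of 21 dendritic and class II MHC members tested, 18 rose and 2 were lower (median 1.93), and the list went from 0.0661, 0.0885 and 0.079% of reads in WT to 0.395, 0.352 and 0.381% in MYH11. Ciita, the activator that class II genes depend on, rose 15.3-fold (from 239 ± 36.1 to 3659.9 ± 501). Cd74, the invariant chain, was at 8582, 15738 and 13218 in WT and 63744, 55098 and 59164 in MYH11, with no overlap (limma adjusted p = 0.000183). H2-Aa, H2-Ab1 and H2-Eb1 rose 4.82-fold, 4.48-fold and 4.2-fold, and Ctss, the protease that trims Cd74, rose 7.68-fold (from 3284 ± 703 to 25216 ± 2988). Zbtb46, a marker of conventional dendritic cells, fell 6.71-fold (from 527 ± 12.2 to 78.5 ± 33.9) and Ccr7 fell 2.23-fold, a call lost without WT replicate 1 or 2. On chromosome 19 the Ms4a genes (11067471 to 11640851) had 12 of 16 tested, 10 of them higher and 2 lower. Ms4a8a rose 65.4-fold (from 16.2 ± 7.43 to 1062 ± 67.3) and Ms4a6d 24.4-fold, while Ms4a1 (CD20 of B cells) fell 18.5-fold and Ms4a3, a gene of granulocyte and monocyte progenitors, fell 5.81-fold (from 23603 ± 1594 to 4064 ± 2048).

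Receptors that sense microbes, antibodies and nucleotides changed class by class. In the pattern recognition and NF-κB list 14 of 28 rose and 3 fell, led by Tlr9, which senses DNA (8.64-fold), and Tlr8 (6.21-fold). The falls were Nfkbia, the inhibitor of NF-κB (2.68-fold), Irak3 (2.16-fold) and Traf3 (1.16-fold, not called without WT or MYH11 replicate 3), and the count of falls became 5 under TMM, DESeq2 and upper-quartile scaling. Of 25 Fc, lectin and Siglec receptors 12 rose and 10 fell, with Fcgr1 up 16.6-fold (from 188 ± 52.4 to 3114 ± 129) and Clec4d and Cd33 down 7.76-fold and 3.44-fold. Purine and other G protein coupled receptors gave 18 rises and 6 falls of 27. P2ry14, which senses UDP-glucose, rose 14.5-fold (from 146 ± 24.4 to 2125 ± 528), and the adenosine receptors Adora2b and Adora3, both known to act on mast cells, rose 17.3-fold and 14-fold. Gpr84, a medium-chain fatty acid receptor, fell 11.4-fold. In the TNF superfamily Cd40 rose 8.13-fold and Tnfsf13b (BAFF), a survival factor of B cells, fell 12.9-fold (from 1784 ± 318 to 139 ± 58.1).

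Among kinases, adaptors and second messengers, some related genes moved in opposite directions. Genes of both directions were named by rule or chosen after their values were seen, so how often relatives part was not tested. Among 30 proximal signalling genes 10 rose and 14 fell. Grap2 (GADS), an adaptor that joins LAT to SLP-76 below immune receptors, was at 188, 205 and 231 in WT and 8544, 6973 and 11627 in MYH11, 43.4-fold higher (limma adjusted p = 9.75e-08). Lat rose 8.42-fold (from 198 ± 4.12 to 1663 ± 439.8) and the Src family kinase Fyn, which acts below the IgE receptor, rose 5.23-fold (from 672 ± 22.8 to 3512 ± 402), while Fgr of the same family fell 1.94-fold. Of the protein kinase C genes, Prkcq rose 19.6-fold (from 252 ± 37.5 to 4936 ± 779.9) and Prkca 5.54-fold, and Prkcb fell 1.69-fold. Itpr1, a calcium channel of the endoplasmic reticulum, rose 5.27-fold (from 1703 ± 454 to 8985 ± 1893) and the plasma membrane channel gene Orai1 fell 1.66-fold. Inpp4b, a phosphoinositide phosphatase, rose 12.4-fold (from 125 ± 12.9 to 1549.7 ± 354). Among feedback genes of the MAP kinase pathway, Spry1 rose 4.71-fold, and Dusp6 fell 2.54-fold. Dusp1 was at 395, 1156 and 2464 in WT and 369, 270.2 and 274 in MYH11 (limma adjusted p = 0.0265), and its call was lost in 4 of the 6 fits that left out 1 library.

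Secreted developmental signals appeared among the steepest rises. Wnt2, a ligand of the Wnt pathway, had 2 reads over the 3 WT libraries and 2399, 1782 and 3235 normalised reads in MYH11, and the ratio of group means had a 95% counting interval from 1064 to 31730. Axin2, a common target and brake of Wnt signalling, rose 6.82-fold (from 44.7 ± 22.9 to 305 ± 85.7). Nog (noggin), which binds bone morphogenetic proteins, had 0 reads in WT and 195 ± 84 in MYH11, at least 55.5-fold higher. The type I receptors parted, with Acvr1 up 6.59-fold (from 59.9 ± 5.83 to 395 ± 19.2) and Bmpr1a down 9.12-fold (from 1062 ± 131 to 116 ± 70.3). Of 25 Wnt and Notch genes tested 11 rose and 6 fell, and Notch1 and its ligand Jag1 fell 1.5-fold (not called without WT replicate 2) and 4.29-fold. Plxnb2, a semaphorin receptor, rose 10.04-fold (from 1142 ± 26.1 to 11466 ± 1089) and Plxnc1 fell 3.38-fold (from 7981 ± 852 to 2359 ± 359). Nrp1 rose 3.9-fold. Igf2r, which clears insulin-like growth factor 2 and carries lysosomal enzymes, fell 19.4-fold (from 4898 ± 528 to 253 ± 85.5).

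Genes of the cell surface and of epithelial contacts gave several wide differences. Podxl, a sialomucin related to CD34 that lines kidney podocytes and blood vessels, was at 38.6, 47 and 48.2 in WT and 21718, 15831 and 23009 in MYH11, 453-fold higher (log2 fold change 8.78, SE 0.24, limma adjusted p = 6.93e-08). The tight junction gene Cldn3 had 0 reads in WT and 289.8 ± 128 in MYH11, at least 82.2-fold higher, whereas Cldn1 fell 115-fold (from 2961 ± 686 to 25.9 ± 12.5). Cxadr, another junction protein, fell 16.3-fold, and Pkp1, a desmosome protein, had 2 reads over the WT libraries against 1346 in MYH11. Of 29 integrin and adhesion genes 16 rose and 6 fell. Itgb7, which guides mast cell progenitors and lymphocytes to the gut, rose 9.47-fold (from 1269.6 ± 129 to 12025 ± 675), Itga1 rose 5.94-fold, and Itgam and Itgb2, the chains of the neutrophil and macrophage integrin Mac-1, fell 3.21-fold and 3.2-fold. Complement and coagulation genes rose in 16 of 27 and fell in 7, with C4b of complement up 68.6-fold (from 98.5 ± 33.9 to 6757 ± 641). Plaur, the urokinase receptor, fell 4.45-fold, and Spon2 fell 89.6-fold (from 365 ± 36.6 to 4.07 ± 1.69).

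Further genes went from silence to clear expression. A set of 5 had 0 reads in all WT libraries and at least 200 normalised reads in MYH11, namely Dnase2b, an acid nuclease (489.7 ± 136, at least 139-fold), Cldn3, Rprm, a cell cycle arrest protein (268 ± 91.6, at least 76.2-fold), the homeobox gene Dbx2 (251 ± 39.3, at least 71.2-fold) and Il13. No gene at or above 200 normalised reads in WT had 0 reads in MYH11. Genes with 0 reads in MYH11 and reads in every WT library included A730046J19Rik at 39.6, 51.8 and 34.1 in WT and Cyp1a1, an enzyme induced through Ahr, at 34.7, 37.4 and 31.7. The neuronal membrane gene Gsg1l had reads in 1 WT library alone, at 4.82, 0 and 0 in WT, and was at 2729, 2134 and 3158 in MYH11. The retinoid-responsive gene Rarres1 had 6 reads over the WT libraries and rose to 645 ± 221 normalised reads. Falls of similar rank included the retinaldehyde dehydrogenases Aldh1a1 (65.6-fold, from 2867 ± 172 to 43.7 ± 24.5) and Aldh1a7 (143-fold, from 1092 ± 111 to 7.61 ± 0.79), which are close paralogues, the acyl-CoA synthetase Acsl6 (90.4-fold, from 365 ± 53.4 to 4.04 ± 3.99) and the calcium-binding protein Tesc (62.4-fold, from 330.0 ± 164 to 5.28 ± 0.157). Sh3tc2, an adaptor of Schwann cells, fell from 942 ± 60.9 to 4 reads over the MYH11 libraries.

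**Figure D4:**
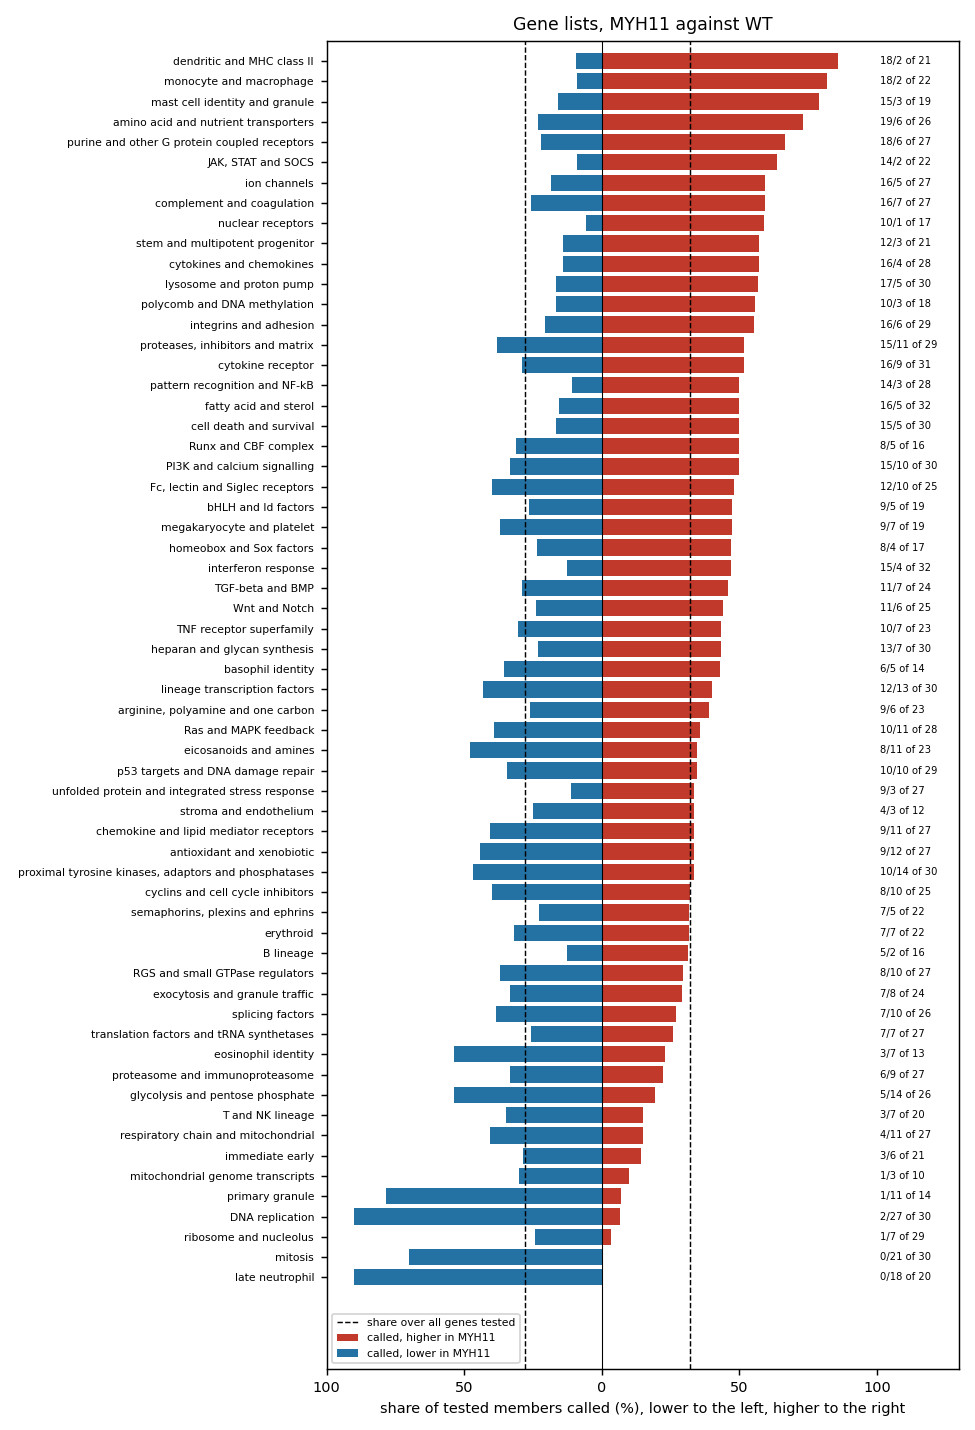
For each of 61 gene lists, the share of tested members called lower (blue, to the left) and higher (red, to the right) in MYH11, in percent, with the counts higher/lower of tested at the right edge and dashed lines at the shares over all genes tested, 27.8% and 32%. Dendritic and MHC class II, monocyte and mast cell lists have the largest shares called higher, and the late neutrophil and mitosis lists have none.

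Red cell and platelet genes were called in both directions. Of 22 erythroid genes 7 rose and 7 fell, close to the shares over all genes tested (32% and 27.8%). Hba-a1, an α globin, was at 5084, 4019.5 and 5558 in WT and 44007, 30916 and 51271 in MYH11, 8.61-fold higher (limma adjusted p = 1.54e-05), and Hbb-bs and Alas2, the β globin and the enzyme that starts haem synthesis in red cells, rose 7.46-fold and 15.3-fold. Reads of the paired globin genes may be split between copies. Among the erythroid falls were Add2 (adducin β, 8.66-fold), the water channel Aqp1 (9.42-fold) and the carbonic anhydrase Car1 (2.5-fold), while Sptb (spectrin β) rose 2.23-fold. Klf1 and Slc4a1 were not called, at 2929 ± 315 in WT and 2837 ± 340.1 in MYH11 and at 5072 ± 1299 in WT and 5340.2 ± 1097 in MYH11. In the megakaryocyte list 9 of 19 rose and 7 fell. Mrvi1, a partner of a cyclic GMP-dependent kinase in platelets and smooth muscle, rose 59.9-fold (from 165 ± 45.4 to 9863 ± 2832), Gp1ba and Gp5 rose 12.9-fold and 6.03-fold, and Gp9, which belongs to the same receptor complex, fell 3.47-fold. Pf4 fell 6.65-fold (from 756 ± 212 to 114 ± 27.4).

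Lymphoid, stromal and stem cell genes were mixed. Of 16 B lineage genes 5 rose, 2 fell and 9 were not called. The list took 0.163, 0.165 and 0.582% of the reads in the WT libraries and 0.302, 0.215 and 0.134% in MYH11, and WT replicate 3 stood apart through Ighm, the IgM heavy chain, at 60231, 63849 and 258741 in WT. Rag1 and Rag2, which cut antigen receptor genes, rose 6.18-fold (from 376 ± 103 to 2323 ± 702) and 2.96-fold, and the adaptor Blnk rose 7.21-fold, while Pax5, the factor of B cell identity, was at 208 ± 27.1 in WT and 273 ± 66.7 in MYH11. Of 20 T and NK genes 3 rose and 7 fell, including Nkg7 (3.92-fold, from 8129 ± 472 to 2076 ± 759.9). In the stroma list 12 of 18 genes were tested, 4 rose and 3 fell. Cxcl12, the chemokine that holds stem cells in the marrow, rose 13.9-fold (from 88 ± 10.4 to 1224 ± 483), whereas the osteoblast and fibroblast gene Col1a1 fell 7.86-fold (from 235 ± 76.7 to 29.8 ± 10.5) and the stromal markers Lepr and Pdgfra were at 13.8 ± 4.79 and 2.36 ± 1.85 in MYH11. Among 21 stem and multipotent progenitor genes tested 12 rose and 3 fell. Hlf, a factor of stem cells, rose 4.43-fold (from 679 ± 10.1 to 3008 ± 517), Tek (TIE2) rose 23.4-fold (from 60.9 ± 19 to 1426 ± 361), and Prom1 fell 4.56-fold (from 6696 ± 451 to 1468 ± 934). Cd34 was at 3342, 2274 and 2333 in WT and 3138, 3705 and 4226 in MYH11, where the groups overlapped although the fit called it (1.39-fold, limma adjusted p = 0.0431), and 4 of the 6 fits that left out 1 library did not.

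**Figure D5:**
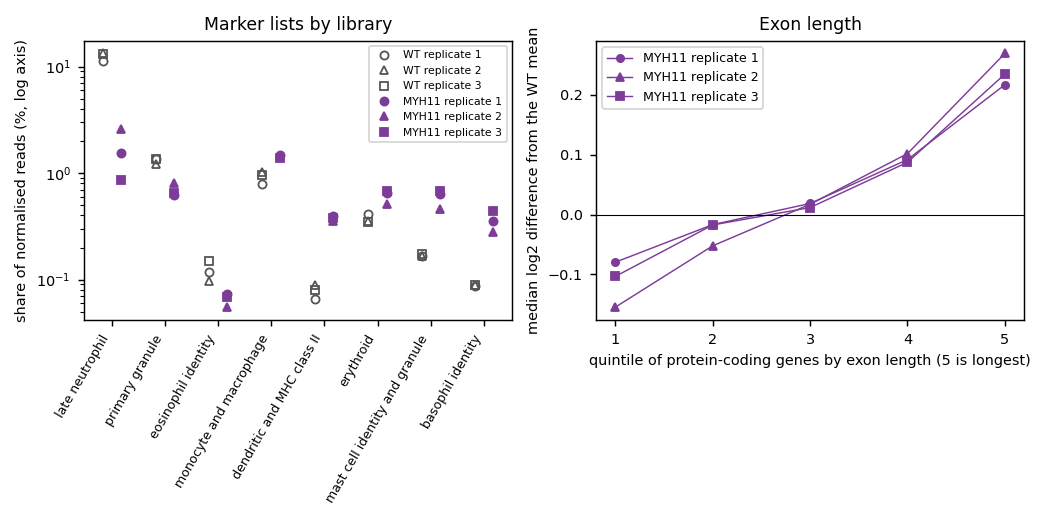
Left, the share of normalised reads (percent, log axis) taken by 8 marker lists in each WT library (open grey symbols) and MYH11 library (filled purple symbols), with replicates told apart by symbol. Right, the median log2 difference of each MYH11 library from the WT mean in quintiles of protein-coding genes by exon length. MYH11 replicate 2 has the highest late neutrophil share (2.58%) and the lowest mast cell share (0.461%) of its group, and all 3 lines climb with exon length.

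Most DNA replication and mitosis genes fell in normalised reads. Of 30 DNA replication genes 27 fell and 2 rose (median -0.49). Mcm5, a subunit of the replicative helicase, fell 1.53-fold (from 19008 ± 386 to 12421 ± 255) and the ribonucleotide reductase gene Rrm2 fell 1.89-fold (from 17592 ± 911 to 9290.2 ± 514). The polymerase genes Pola1 and Pole, which rose 1.2-fold and 1.2-fold, lost their calls under upper-quartile scaling, and Pole also under TMM and DESeq2 scaling and without 5 of the 6 libraries in turn. Of 30 mitosis genes 21 fell and none rose, with Cdk1 down 1.62-fold (from 10135 ± 461 to 6257 ± 446). Mki67, the proliferation antigen, was at 47218 ± 1079 in WT and 50040.3 ± 5581 in MYH11. As a share of all reads, the mitosis list took 0.743, 0.675 and 0.665% in WT and 0.661, 0.752 and 0.688% in MYH11, with overlap. The DNA replication list went from 0.557, 0.486 and 0.49% to 0.42, 0.434 and 0.424%. Calls rest on the size-factor scale, and scaling by total reads was not tried. Cyclins parted, as Ccnd2 rose 3.61-fold (from 3114 ± 92.7 to 11238 ± 1110.3) and Ccnd3 fell 2.42-fold (from 21371 ± 1540.2 to 8835 ± 351). The phosphatases that release cyclin-dependent kinases did the same, with Cdc25b at 2152, 2293 and 2125 in WT and 16286, 14240.4 and 18027 in MYH11, 7.39-fold higher, and Cdc25a down 2.69-fold (from 7969 ± 95.9 to 2965 ± 518). Cdkn1a (p21) rose 4.95-fold (from 244 ± 31.9 to 1209 ± 290.2) and Phlda3, a p53 target that restrains AKT, rose 17.5-fold (from 40.5 ± 1.52 to 707 ± 120.0). Among cell death genes 15 of 30 rose and 5 fell, and the BH3-only genes Bbc3, Bmf and Bcl2l11 rose 5.8-fold, 5.38-fold and 2.64-fold.

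Metabolic genes changed by pathway. The glycolysis and pentose phosphate list gave 14 falls and 5 rises of 26 (median -0.35). The pentose phosphate genes Tkt, Taldo1, Pgd and G6pdx fell 2.27-fold, 1.87-fold, 2.58-fold and 1.96-fold, and the platelet form of phosphofructokinase, Pfkp, rose 3.4-fold (from 2651 ± 145 to 9014 ± 1183). Ldhb fell 6.24-fold (from 1925 ± 148 to 308 ± 78.8) while Ldha was at 28754 ± 1326 in WT and 26468 ± 1901 in MYH11. In lipid metabolism 16 of 32 rose and 5 fell. Lpl, lipoprotein lipase, rose 7.28-fold (from 1067 ± 170.1 to 7773 ± 1973) and the cholesterol exporters Abca1 and Abcg1 rose 7.42-fold and 5.56-fold, while the cholesterol synthesis genes Sqle and Cyp51 were not called. Acsl1 fell 4.37-fold (from 12333 ± 1132 to 2823 ± 603). Of 26 transporters tested 19 rose and 6 fell, with Slc7a8, a carrier of large neutral amino acids, up 13-fold (from 608 ± 21.9 to 7930.0 ± 2649.7) and the iron exporter Slc40a1 down 2.58-fold (from 12336 ± 289 to 4789 ± 1077). Lysosomal genes rose in 17 of 30 and fell in 5, among them Ctsl up 3.84-fold. Ctsk was at 1359, 304 and 721 in WT and 157, 162 and 191 in MYH11 (limma adjusted p = 0.0221), and its call was lost in 4 of the 6 fits that left out 1 library. Prdx5, a peroxiredoxin, fell 4.44-fold (from 35429 ± 2581 to 7981 ± 1387).

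Ribosome, translation, proteasome and respiratory chain genes changed by less than 2-fold or were not called. Of 29 ribosome and nucleolus genes 21 were not called, 7 fell and 1 rose, and no ribosomal protein gene among them was called. That count of falls became 11 under upper-quartile scaling. Translation genes gave 7 rises and 7 falls of 27, proteasome genes 6 and 9 of 27, and respiratory chain genes 4 and 11 of 27, none of these by 2-fold or more. The immunoproteasome subunits Psmb8 and Psmb10 rose 1.51-fold and 1.8-fold. Under upper-quartile scaling proteasome falls became 14 and respiratory chain rises 2. Interferon-response genes rose in 15 of 32 and fell in 4, with Mx1 up 12.5-fold (from 56.1 ± 11 to 703 ± 140.5) and Gbp2 up 9.68-fold (from 494 ± 154 to 4785 ± 2120.3), while Ifit1 and Isg15 were not called, at 126 ± 35.3 in WT and 226 ± 51.1 in MYH11 and at 226 ± 31.7 in WT and 359.7 ± 36.1 in MYH11. Among 21 immediate early genes 3 rose and 6 fell. Atf3, a gene of the stress response, was at 21.2, 25.9 and 56.4 in WT and 731, 647 and 929.5 in MYH11, 22.3-fold higher, while Fos and Egr1 were at 3192 ± 2924 in WT and 1043 ± 195 in MYH11 and at 188 ± 126 in WT and 72.7 ± 11.4 in MYH11 and were not called.

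The 3 MYH11 libraries also differed among themselves. Replicate 2 was the lowest of its group in 66.4% of the 1064 genes called at least 4-fold higher and the highest in 71.1% of the 558 genes called at least 4-fold lower. Replicate 3 was the lowest in 72.6% of the latter. The late neutrophil share was highest in replicate 2 and lowest in replicate 3, and the part of cell makeup in these differences was not tested. The genes with the greatest variation among MYH11 libraries, relative to their mean, were Slfn4, Emp1, Asprv1, Stfa2l1 and Aldh1l1. Slfn4, a myeloid gene induced by interferon, was at 2218, 3949 and 3755 in WT and 341, 1865 and 219 in MYH11. Emp1, a membrane protein of epithelia, was at 105, 88.3 and 198 in WT and 227, 230.1 and 1352 in MYH11, with replicate 3 well above the others, and was not called without it or without WT replicate 1 or 2. Stfa2l1, a neutrophil cystatin, was at 581, 775 and 759.9 in WT and 202, 584 and 105 in MYH11, the groups overlapped, and edgeR and DESeq2 did not call it.

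Levels in MYH11 were also tested directly against the multimerization mutant, a comparison that uses the same MYH11 libraries, and 8869 of 15948 genes (55.6%) were called. Gata2 was at 1512, 1213 and 1559.6 in the mDE libraries, below all MYH11 libraries (log2 fold change, MYH11 minus mDE, 3.49, limma adjusted p = 5.31e-07). Il1rl1 was at 1249 ± 241, Il9r at 37.4 ± 22.8, Tph1 at 1.33 ± 1.17 and Podxl at 103 ± 37 in mDE, each lower than in MYH11 (limma adjusted p = 3.75e-07, 6.74e-07, 7.85e-06 and 1.55e-07). S100a9 was at 1501531 ± 294669.7 and Cebpe at 11322 ± 1405 in mDE, each higher than in MYH11 (limma adjusted p = 4.35e-05 and 2.57e-05). Fn1, at 2194 ± 371 in mDE, and Cbfb, at 5227 ± 481, were compared with MYH11 as well, and the log2 fold change was 5.04 for Fn1 (limma adjusted p = 1.18e-07) and 0.33 for Cbfb (limma adjusted p = 0.00317). Some genes differed from WT in MYH11 and were not called against mDE. Rag2 was at 169 ± 75.2 and Ctsk at 272 ± 164 in mDE (limma adjusted p = 0.177 and 0.617), which does not show that the fusion alleles act alike on them.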

How the data were processed

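RNA-seq of c-Kit-selected mouse marrow was analysed in 3 WT and 3 MYH11 libraries, with 3 mDE libraries added to estimate the spread. Per the submitters' processing notes, CASAVA 1.8.2, STAR 2.4, RSEM and DESeq2 and the GRCm38 build were used. The authors deposited a signal that is a read count per gene divided by a library size factor. Dividing each column by its smallest value above 0 gave whole reads for 100% of values (tolerance 1e-06). The columns of fold changes and adjusted p-values in that table were not used. Whether counting used strand is not given in the sources used here, so a gene and its antisense partner cannot be told apart. GENCODE M21 gave symbols for 42548 of 43629 identifiers (97.52%). The 17919 genes with no reads were left out.

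Values were tested as log2(value + 1) with limma 3.58.1 in R 4.3.3 (empirical Bayes with trend, 1 mean per genotype, all 9 libraries, 6 residual degrees of freedom, two-sided, Benjamini-Hochberg adjustment, threshold 0.05). Genes passed edgeR 4.0.16 filterByExpr on the recovered reads. The test was checked on simulated data in which a small set of genes changed, in equal numbers up and down. That check does not cover a shift as wide as the one found here. edgeR quasi-likelihood, DESeq2 1.42.0 and limma-voom on the recovered reads, other scalings, filters, pseudocounts and left-out libraries were alternatives. Libraries of a genotype differed by more than sampling noise and were all kept. Counting intervals and floors (3 reads) cover counting error only.

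The comparison, the gene lists (62 lists, 1429 genes) and the alternatives were chosen with earlier results of these data known. Genes were named by rule: up to 4 called members of each list in each direction with the largest log2 fold change, at least 200 normalised reads and no overlap; up to 3 members not called; the 12 largest gains and losses of reads; the 25 largest rises and falls; the 5 with the widest variation among MYH11 libraries; and up to 6 genes at 0 in either genotype. Ccr7, Cd34, Cpa3, Csf1r, Cxcl2, Epx, Fgr, G6pdx, Gfi1, Gp5, Gp9, H2-Aa, H2-Ab1, H2-Eb1, Il18rap, Il1r1, Il1r2, Il1rl2, Irf1, Kif3a, Mcm5, Mcpt4, Mitf, Mmp8, Mrc1, Ms4a2, Ms4a8a, Pgd, Pim1, Prtn3, Rad50, S100a6, Sptb, Stat5a, Stat5b, Taldo1 and Tkt were called but fall outside that rule and were chosen after their values were seen, as were the 5 clusters, their genes and the printed promoter windows (RefSeq, GRCm38.p6). Further genes are named only as not called or not tested. Some listed genes are counted but not reported here by name.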

Additional observations from a re-analysis of the deposited data

How the results depend on the processing

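The counts of genes higher and lower stayed within 1.5 times of 5105 and 4431 under every alternative run. Called genes numbered 9539 under TMM scaling, 9536 under DESeq2 size factors and 9672 under upper-quartile scaling, where 4368 rose and 5304 fell and the median log2 fold change was -0.07. Counts were 9545 with edgeR, 9385 with DESeq2, 9525 with limma-voom, 9655 in a fit of 6 libraries and 9879 with no filter. A minimum of 5 CPM in 3 libraries tested 10610 genes and called 7260, of which 1961 differed by at least 2-fold against 3704. Leaving out 1 library in turn gave 8315 to 8976 calls. After the group mean of each gene was subtracted, what remained in same-numbered WT and MYH11 libraries correlated at 0.001, 0.125 and -0.147. Differently numbered libraries gave -0.178 to 0.207. With 3 libraries a group, these values cannot settle whether the numbers pair libraries. The replicate block gave 9452 calls (5061 higher and 4391 lower).

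Of all 9536 calls, 8250 to 8647 were kept with 1 library left out and 8799 under upper-quartile scaling. Of 291 genes named with values and tested, 12 lost a call under at least 1 alternative, in 44 of 5221 values, and no called gene changed direction. Many of the named genes were picked for large changes without overlap, which makes a call harder to lose. With 1 library left out, calls were lost in at least 1 fit, at log2 fold changes from 0.39 to 0.67 for Cd34, 0.22 to 0.32 for Pole, 0.89 to 2.18 for Emp1, -1.65 to -0.74 for Ccr7, -2.54 to -1.46 for Ctsk, -2.48 to -1.16 for Dusp1, -0.72 to -0.46 for Notch1, -2.26 to -1.02 for Stfa2l1 and -0.25 to -0.19 for Traf3. The highest adjusted p among these limma fits was 0.141, for Cd34 (edgeR and the replicate block also lost it). Sox13 and Cxcl2 lost the call with limma-voom, and Pola1 under upper-quartile scaling. The cause was not tested. Genes not called changed sign in 17 values. Cd14 had log2 fold changes of -0.043 under upper-quartile scaling, -0.36 with edgeR and with DESeq2, and -0.45 to 0.82 with 1 library left out. Under upper-quartile scaling Mki67 was at -0.014 and Slc4a1 at -0.0043. With 1 library left out the range was -0.13 to 0.039 for Klf1, -0.008 to 0.15 for Mki67, -0.11 to 0.27 for Slc4a1 and -0.067 to 0.039 for Stat6. Of 2232 list counts, 53 moved by more than 1.5 times. Genes with under 3 reads a library lie at the limit that the depth can resolve.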
